A study of Mus musculus with 6 samples.

Results

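The ADAM, ADAMTS and ADAMTS-like genes were described in cultured dermal fibroblasts of mice labelled TSP2KO, which lack thrombospondin-2, and of wild-type (WT) mice. Members were the protein-coding genes of the deposited table whose symbol is Adam, Adamts or Adamtsl followed by a number and at most 1 letter. There were 40 of them among 23407 genes: 18 ADAM, 17 ADAMTS and 5 ADAMTS-like genes. RNA was sequenced from 3 TSP2KO and 3 WT libraries. All came from primary fibroblasts of dorsal skin of mice aged 12 weeks (3 months), enriched by 3 to 5 days of culture with serum and harvested at passage 1, so neither group is intact skin. The labels name no agent, strain or construct, and whether each library stands for its own animal is not said. The p-values therefore cover the spread among these 6 libraries, part of which may be technical.

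ADAMs are membrane-anchored metalloproteases that cut other proteins at the cell surface and release their outer parts, a step called shedding. ADAMTS proteases are their secreted relatives. They carry thrombospondin type 1 repeats, a fold they share with thrombospondin-2, and act on matrix proteins such as versican and procollagen. ADAMTS-like proteins have the repeats without a protease domain and bind the matrix, in part at fibrillin microfibrils.

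Values are normalised reads, the authors' counts scaled between libraries. Estimated depth was 14776502 to 20521968 reads in TSP2KO libraries and 18266754 to 34599855 reads in WT libraries. Thbs2, the gene of thrombospondin-2, had 5177, 6635 and 4891 normalised reads in TSP2KO 1, TSP2KO 2 and TSP2KO 3, against 122061 and 116720 in WT 1 and WT 2 and 8841 in the library labelled WT 3. For Thbs2 that library lay far below WT 1 and WT 2 and near, though above, the TSP2KO libraries. Each fold change of a named gene is therefore given with it and with it left out. This library was singled out after its values were seen, and only WT 1 and WT 2 then stand for WT. Leaving out a library that resembles the other group tends to widen differences, so adjusted p-values without it are descriptive only. At an unadjusted p under 0.05 (limma), 1866 genes were then lower and 1740 higher, against 896 and 538 with all libraries. Over all genes tested, the library labelled WT 3 was nearer to the TSP2KO mean than to WT 1 and WT 2 for 68.1%. Among 19 tested macrophage markers this held for 1 (5.26%). All 11 fibroblast markers were above 0 in every library. Summed over 21 macrophage markers, TSP2KO libraries had 991 to 1326 normalised reads, against 7349.9 and 6049.5 in WT 1 and WT 2 and 4142 in the library labelled WT 3; of these markers Aif1 was listed at 0 in the 3 TSP2KO libraries. Summed over 16 keratinocyte markers, TSP2KO 1, TSP2KO 2 and TSP2KO 3 had 15542, 14916 and 652, against 2037, 762 and 44585 in WT 1, WT 2 and the library labelled WT 3. In bulk RNA, fewer cells of a type and less RNA per cell cannot be told apart.

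Of the 40 members, 29 had a mean of at least 10 over the 6 libraries and were counted as expressed: 12 of 18 ADAM, 12 of 17 ADAMTS and 5 of 5 ADAMTS-like genes. Just above that limit were Adamts17 and Adam1a, with means of 12.5 and 12.0, and just below it Adamts16 and Adam5, with 8.70 and 7.20. Adamts17 was above that limit only in WT 1 and WT 2. The 11 members below it were Adam4, Adam5, Adam18, Adam21, Adam28, Adam32, Adamts3, Adamts8, Adamts16, Adamts18 and Adamts20. Adam4, Adam5, Adam18, Adam21 and Adam32 are known mostly from the germ line, and Adamts20 from versican turnover on the path of migrating pigment cells. Of all 40 members, 6 were listed at 0 in at least 1 library.

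No member passed the threshold with all 6 libraries (limma, Benjamini-Hochberg adjusted p under 0.05 over 14707 genes), where 0.0612% of all genes passed as lower and 0% as higher. At an unadjusted p under 0.05, 6 members were lower, 20.7% of those tested against 6.09% of all genes, and 0 were higher, against 3.66%. By limma-voom, which weights each value by its precision, no member passed either. Without the library labelled WT 3, 4 members passed as lower in TSP2KO, 13.8% of the 29 against 2.75% of all genes. These were the proteoglycanases Adamts1 and Adamts5, the procollagen protease Adamts2 and the matrix protein gene Adamtsl1. None passed as higher, against 2.43% of all genes. By sign, 18 members were lower and 11 higher. Their median log2 fold change was -0.29, against -0.01 over all genes tested; by subfamily it was -0.15 for ADAM, -0.76 for ADAMTS and 0.30 for ADAMTS-like genes. The last turned to -0.14 without the library labelled WT 3.

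**Figure D1:**
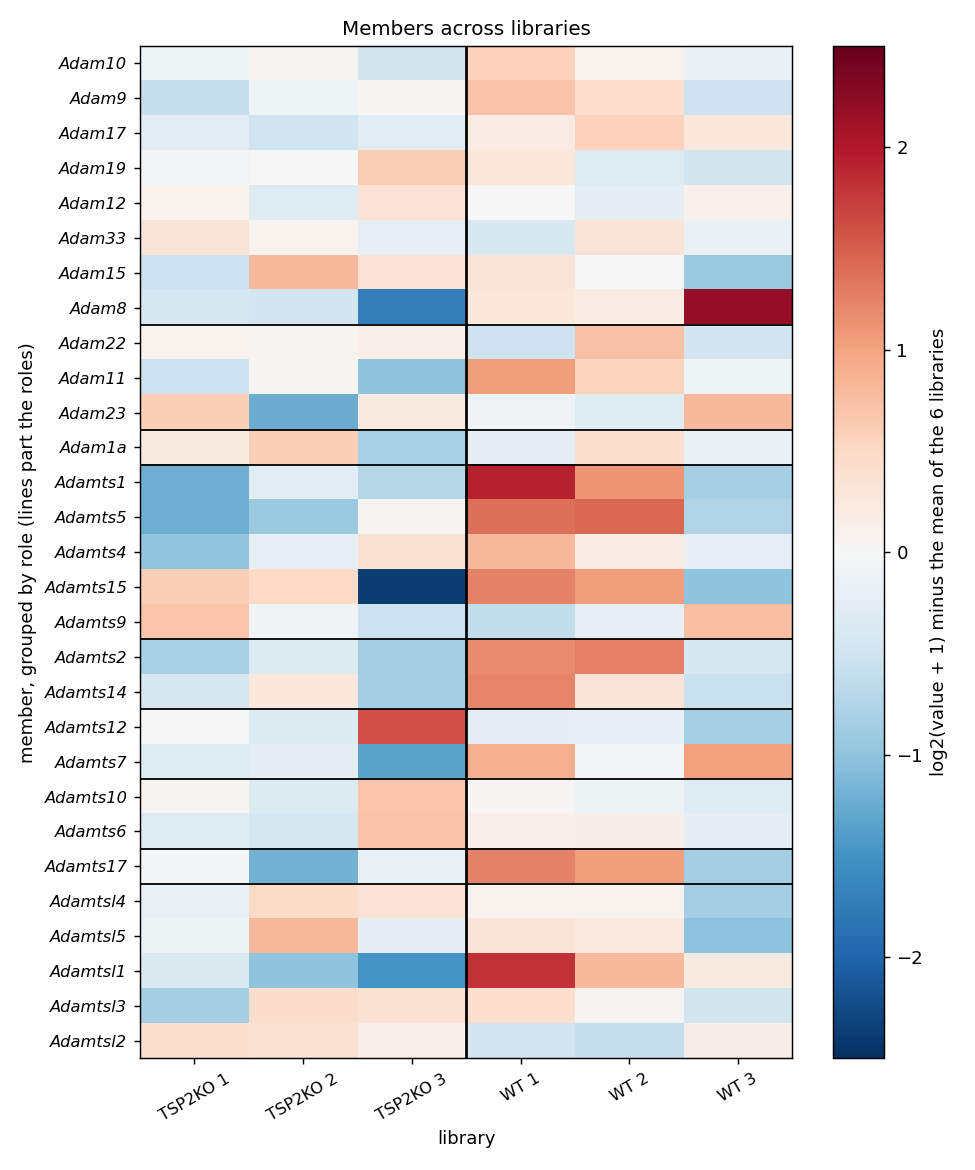
Each row is a tested member and each column a library, TSP2KO left and WT right, with colour for log2(value + 1) minus the mean of the 6 libraries. Adamts1, Adamts5 and Adamts2 are red in WT 1 and WT 2 and blue in the library labelled WT 3.

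The promoters of the members the comparison turns on are shown for those with an entry in the RefSeq table of the build GRCm38.p6. Of the 7 members that passed without the library labelled WT 3 or whose labelled groups did not overlap, 4 had an entry; Adamts5, Adamtsl1 and Adamts7 are named only. Each sequence holds the 250 bases before the transcript start, 5′ to 3′ on the strand of the gene. Capitals mark matches, on either strand, to the TATA box, spelled TATAAA, the CCAAT box, spelled as named, the GC box, spelled GGGCGG, the AP-1 motif, spelled TGANTCA, or the TEAD motif, spelled GGAATG. These lie at chr16:85803114-85803363 (minus strand) for Adamts1, chr11:50601835-50602084 (plus strand) for Adamts2, chr12:21373633-21373882 (minus strand) for Adam17 and chr7:139992563-139992812 (minus strand) for Adam8.
Adamts1: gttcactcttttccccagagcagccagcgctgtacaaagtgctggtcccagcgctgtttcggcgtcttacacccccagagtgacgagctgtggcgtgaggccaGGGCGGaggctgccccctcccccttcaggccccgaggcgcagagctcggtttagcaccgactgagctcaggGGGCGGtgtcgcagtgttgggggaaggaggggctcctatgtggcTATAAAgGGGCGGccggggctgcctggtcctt
Adamts2: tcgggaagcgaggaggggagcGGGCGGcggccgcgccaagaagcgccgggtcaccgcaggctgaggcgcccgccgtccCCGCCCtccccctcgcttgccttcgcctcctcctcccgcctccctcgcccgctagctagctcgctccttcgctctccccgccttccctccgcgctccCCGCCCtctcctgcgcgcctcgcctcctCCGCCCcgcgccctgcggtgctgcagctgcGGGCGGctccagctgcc
Adam17: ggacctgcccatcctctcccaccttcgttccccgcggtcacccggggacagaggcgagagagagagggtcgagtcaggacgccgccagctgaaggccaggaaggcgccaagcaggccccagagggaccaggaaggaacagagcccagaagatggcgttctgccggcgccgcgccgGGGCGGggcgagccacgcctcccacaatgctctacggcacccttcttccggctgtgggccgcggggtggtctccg
Adam8: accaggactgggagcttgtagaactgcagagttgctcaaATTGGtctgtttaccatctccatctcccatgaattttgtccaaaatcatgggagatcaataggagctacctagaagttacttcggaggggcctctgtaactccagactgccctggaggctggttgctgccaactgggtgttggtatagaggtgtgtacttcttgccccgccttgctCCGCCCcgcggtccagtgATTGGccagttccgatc

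Adamts1 alone of the 4 held a TATA box, which began 32 bases before the start, together with 3 GC boxes. The TATA box match was present in 12.4% of the 32851 promoter windows of the table. Adamts2 held 5 GC boxes, Adam17 and Adam8 held 1 each, and 32.7% of all windows held at least 1. Adam8 held 2 matches to CCAAT, which 33.8% of windows had. None of the 4 held the AP-1 motif (6.75% of windows) or the TEAD motif (12.6%). Bases G and C made up 65.6% of the Adamts1 window, 78.0% of Adamts2, 70.4% of Adam17 and 52.8% of Adam8, against a median of 52.4% over all windows. A match is a description of these letters and not of binding.

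Proteoglycanases of the ADAMTS family cut large proteoglycans such as versican and aggrecan. Adamts1 (chromosome 16, 85793827 to 85803113, minus strand, mm10) had 1219.7, 2346 and 1729 normalised reads in TSP2KO 1, TSP2KO 2 and TSP2KO 3, against 10726, 6129.8 and 1592 in WT 1, WT 2 and the library labelled WT 3. WT 1 and WT 2 were high and the library labelled WT 3 lay among the TSP2KO libraries, so the groups overlap. The mean was 1765 ± 564 in TSP2KO and 6149 ± 4567 in WT (SD, n = 3 each), with a log2 fold change of -1.47 (SE 0.66, limma adjusted p = 0.529). Leaving out the library labelled WT 3 gave -2.25 (SE 0.34, limma adjusted p = 0.0206), 4.76-fold lower in TSP2KO.

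Adamts5, an aggrecanase that also cuts versican, lies beside Adamts1 on the same strand (85856173 to 85901828). A gap of 53.1 kb parts them, with 1 annotated gene in it and 0 protein-coding genes. Adamts5 had 583, 713 and 1415 normalised reads in TSP2KO 1, TSP2KO 2 and TSP2KO 3, against 3541, 3665 and 807 in WT 1, WT 2 and the library labelled WT 3. Like its neighbour, it was high in WT 1 and WT 2 and not in the library labelled WT 3. The log2 fold change was -1.38 (SE 0.62, limma adjusted p = 0.531) with all libraries and -2.10 (SE 0.36, limma adjusted p = 0.0286) once that library was left out, 4.30-fold lower.

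Adamts4, another abundant proteoglycanase, differed less. It had 782, 1345 and 2021 normalised reads in TSP2KO 1, TSP2KO 2 and TSP2KO 3, against 2709.5, 1799 and 1349.7 in WT 1, WT 2 and the library labelled WT 3. The groups overlapped with and without that library, and the log2 fold change was -0.54 (limma adjusted p = 0.725) with it and -0.78 (95% interval -1.72 to 0.16, limma adjusted p = 0.281) when it was left out. Adamts15, another versican protease, was lowest in TSP2KO 3 at 29.4 and ranged up to 237 in TSP2KO, against 77.6 to 373 in WT; its log2 fold change was -0.86, and -1.57 with the library labelled WT 3 left out (limma adjusted p = 0.820 and 0.308). Adamts9, a further versican protease, had 92.4 to 217 in TSP2KO and 87.6 to 226 in WT, with its highest WT value in the library labelled WT 3 (log2 fold change 0.04, and 0.43 with that library left out; limma adjusted p = 0.984 and 0.545).

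Per kilobase of merged exon, which allows genes to be set side by side, the 5 proteoglycanases tested summed to 484, 818 and 886 normalised reads in TSP2KO 1, TSP2KO 2 and TSP2KO 3. In WT 1 and WT 2 the sum was 2956 and 1909, and in the library labelled WT 3 it was 678. Adamts1 made up 47.5%, 54.1% and 36.8% of that sum in the TSP2KO libraries, against 68.4% and 60.6% in WT 1 and WT 2 and 44.3% in the library labelled WT 3. Adamts4 made up 33.6%, 34.2% and 47.4% in the TSP2KO libraries, against 19.1%, 19.6% and 41.4% in WT 1, WT 2 and the library labelled WT 3. In each TSP2KO library the share of Adamts1 was thus below, and that of Adamts4 above, the shares in WT 1 and WT 2; this was not tested.

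**Figure D2:**
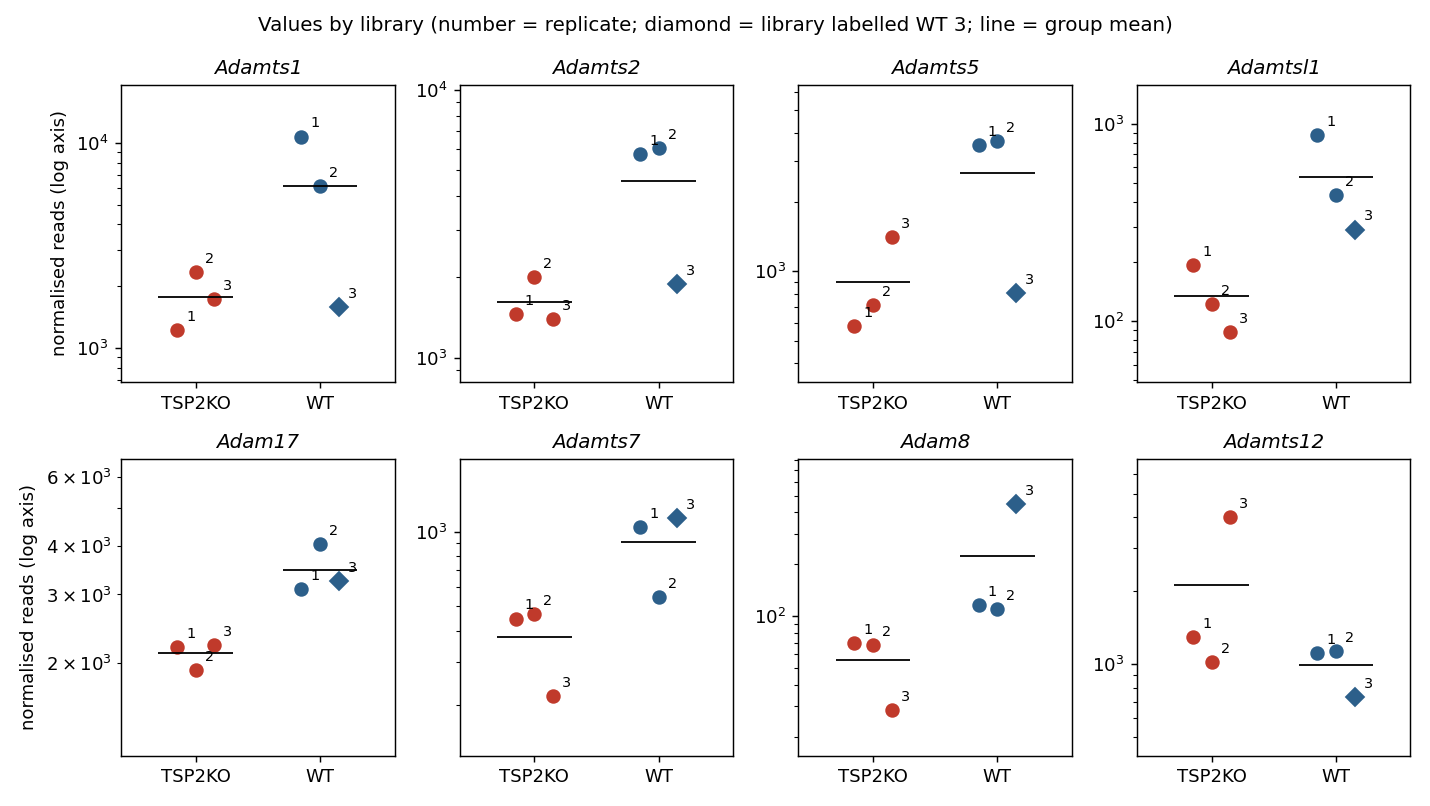
Normalised reads (log axis) of 8 members in each library, TSP2KO left and WT right, numbered by replicate; the diamond is the library labelled WT 3 and the line the mean of the 3 libraries. The diamond sits with TSP2KO for Adamts1, Adamts2 and Adamts5 and with or above WT 1 and WT 2 for Adamts7 and Adam8.

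Procollagen N-proteinases remove the amino-terminal propeptide of fibrillar procollagens before fibrils form. Adamts2 (chromosome 11, 50602084 to 50807573, plus strand), whose loss causes fragile skin (dermatosparaxis) in humans, cattle and mice, had 1449, 2006 and 1396 normalised reads in TSP2KO 1, TSP2KO 2 and TSP2KO 3, against 5735, 6052 and 1881 in WT 1, WT 2 and the library labelled WT 3. Only TSP2KO 2 exceeded the library labelled WT 3, and WT 1 and WT 2 stood well above the rest. The log2 fold change was -1.34 (SE 0.45, limma adjusted p = 0.384) with all libraries and -1.88 (SE 0.21, limma adjusted p = 0.0127) without that library, 3.69-fold lower. Its relative Adamts14 was far scarcer per kilobase, with 9.14 ± 3.72 in TSP2KO and 15.6 ± 9.39 in WT (SD, n = 3 each), against 173 ± 36.2 and 488 ± 249 for Adamts2. Adamts14 did not pass (log2 fold change -0.66, and -1.10 with the library labelled WT 3 left out; limma adjusted p = 0.743 and 0.183), and Adamts3, the remaining gene of this group, lay below the limit of expression.

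Adamts7 and Adamts12 encode proteases that cut cartilage oligomeric matrix protein. Adamts7 had 447, 467 and 218 normalised reads in TSP2KO 1, TSP2KO 2 and TSP2KO 3, against 1044, 545 and 1129.7 in WT 1, WT 2 and the library labelled WT 3. The groups did not overlap, and the library labelled WT 3 was the highest. The log2 fold change was -1.27 (SE 0.39, unadjusted p = 0.0135, limma adjusted p = 0.333), and -1.08 without that library (limma adjusted p = 0.170). Adamts12 had 1289, 1018 and 3989 in TSP2KO 1, TSP2KO 2 and TSP2KO 3, against 1112, 1126 and 733 in WT 1, WT 2 and the library labelled WT 3. Its higher TSP2KO mean rests on TSP2KO 3, while TSP2KO 1 and TSP2KO 2 lay near WT 1 and WT 2 (log2 fold change 0.84, SE 0.50, limma adjusted p = 0.678; 0.63 with the library labelled WT 3 left out, limma adjusted p = 0.519).

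Adamts10 and Adamts6, proteases tied to fibrillin microfibrils, differed little between the groups. Adamts10 ranged from 397 to 817 normalised reads in TSP2KO and from 404 to 513 in WT, and Adamts6 from 133 to 290.3 in TSP2KO and from 150.1 to 198 in WT. For both, TSP2KO 3 was the highest library. The 95% interval of the log2 fold change was -0.38 to 0.95 for Adamts10 and -0.81 to 0.76 for Adamts6, which leaves room for changes of over 1.5-fold in either direction for the second. With the library labelled WT 3 left out, the log2 fold change was 0.20 for Adamts10 and -0.15 for Adamts6, against 0.28 and -0.02 with all libraries. Adamts17, mutated in a human disorder of short stature and lens displacement, was near the limit of expression, with 9.77, 3.92 and 8.90 in TSP2KO libraries, against 25.2 and 22.0 in WT 1 and WT 2 and 5.13 in the library labelled WT 3 (log2 fold change -0.94, and -1.61 with that library left out; limma adjusted p = 0.736 and 0.137).

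Among the ADAMTS-like genes, Adamtsl1 stood apart. Adamtsl1 (chromosome 4, 85514172 to 86428385, plus strand), which encodes the secreted matrix protein punctin, had 192, 123 and 88.1 normalised reads in TSP2KO 1, TSP2KO 2 and TSP2KO 3, against 875, 435 and 291 in WT 1, WT 2 and the library labelled WT 3. Here the library labelled WT 3 was the lowest WT library but lay above all TSP2KO libraries. The log2 fold change was -1.90 (SE 0.45, unadjusted p = 0.00371, limma adjusted p = 0.222), and -2.26 (SE 0.41, limma adjusted p = 0.0323) without that library, 4.80-fold lower.

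The other 4 ADAMTS-like genes did not follow it. Adamtsl2, which binds latent TGF-beta binding protein and is mutated in human geleophysic dysplasia, had 53.4, 53.1 and 44.5 normalised reads in TSP2KO libraries, against 28.8 and 26.7 in WT 1 and WT 2 and 44.9 in the library labelled WT 3. It was the 1 member of the 29 that lay wholly above WT 1 and WT 2 in TSP2KO, 3.45% of members against 21.1% of all genes, and it did not pass (log2 fold change 0.61, and 0.83 with the library labelled WT 3 left out; limma adjusted p = 0.625 and 0.158). Adamtsl4, a microfibril-binding protein of the eye and skin, had 529.7, 845 and 778 in TSP2KO libraries, against 642, 642 and 334 in WT 1, WT 2 and the library labelled WT 3. Adamtsl5, another fibrillin-binding member, had 535, 1018 and 492, against 731, 689 and 285 in the same order of WT libraries. For both, the library labelled WT 3 was the lowest of all 6; the log2 fold change was 0.45 for Adamtsl4 and 0.30 for Adamtsl5 with it, and 0.13 and -0.14 with it left out. Adamtsl3 had 37.3, 92.3 and 88.1 in TSP2KO libraries, against 91.2, 71.0 and 49.4 in WT 1, WT 2 and the library labelled WT 3; the groups overlapped (log2 fold change -0.02, and -0.25 with that library left out).

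**Figure D3:**
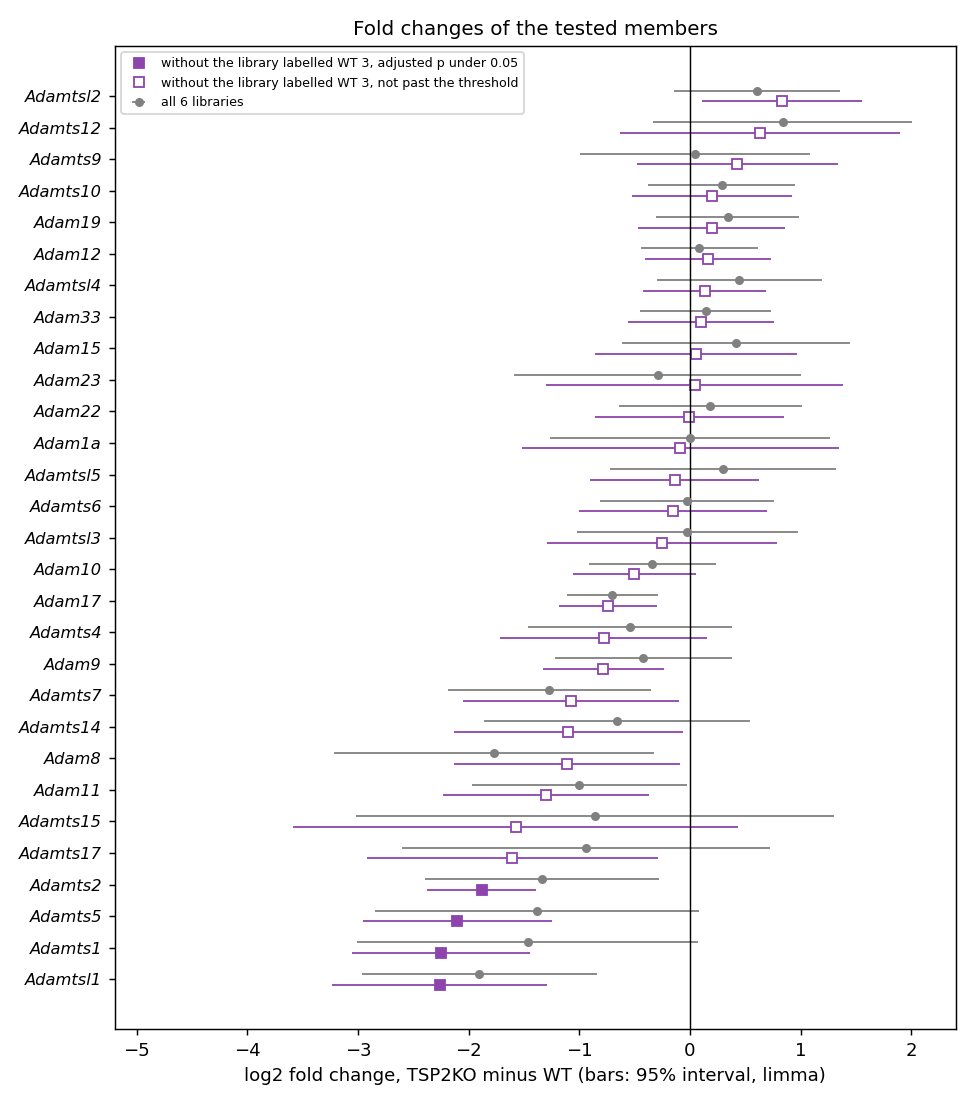
Log2 fold changes of the 29 tested members, TSP2KO minus WT, with 95% intervals from limma, for all 6 libraries (grey circles) and without the library labelled WT 3 (squares, filled where the adjusted p was under 0.05). The 4 filled squares are Adamtsl1, Adamts1, Adamts5 and Adamts2, between -2.26 and -1.88.

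The sheddase genes Adam17, Adam10 and Adam9 differed less between the groups than Adamts1, Adamts2 and Adamts5, with and without the library labelled WT 3. Adam17, which releases tumour necrosis factor and several ligands of the EGF receptor, had 2201, 1919.5 and 2227 normalised reads in TSP2KO 1, TSP2KO 2 and TSP2KO 3, against 3097, 4034 and 3249 in WT 1, WT 2 and the library labelled WT 3. Every TSP2KO library lay below every WT library, the library labelled WT 3 included. The log2 fold change was -0.70 (SE 0.18, 95% interval -1.12 to -0.29, unadjusted p = 0.00486, limma adjusted p = 0.245). Leaving out the library labelled WT 3 gave nearly the same value, -0.74 (SE 0.19, limma adjusted p = 0.0681). Adam17 shares 4.35% of its exon bases with Iah1 on the other strand.

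Adam10, the protease that cleaves Notch receptors at the cell surface, had 3452, 3908 and 2708 normalised reads in TSP2KO libraries, against 5560.2, 3974 and 3355 in WT 1, WT 2 and the library labelled WT 3. Adam9, a widely expressed sheddase of skin cells, had 1936, 2681 and 2976 in TSP2KO libraries, against 4755, 3857 and 2020.1 in WT 1, WT 2 and the library labelled WT 3. Both were highest in WT 1 and overlapped between the labelled groups. Their log2 fold changes were -0.34 and -0.42 with all libraries (limma adjusted p = 0.723 and 0.753). Neither passed with the library labelled WT 3 left out (-0.50 and -0.78, limma adjusted p = 0.246 and 0.0980).

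For Adam19, Adam12, Adam33 and Adam15 the groups overlapped. Adam19, a sheddase of neuregulin, had 906, 943 and 1456 normalised reads in TSP2KO libraries, against 1155, 764 and 691 in WT 1, WT 2 and the library labelled WT 3. Adam12, a protease of mesenchymal cells and of repair, had 430.3, 327 and 521 in TSP2KO libraries, against 404, 346 and 440.4 in those WT libraries. Log2 fold changes with all libraries were 0.34 for Adam19, 0.14 for Adam33 and 0.42 for Adam15, and 0.20, 0.10 and 0.05 with the library labelled WT 3 left out. That of Adam12 was 0.08 (0.16 with that library left out), with a 95% interval of -0.45 to 0.61, so a change beyond about 1.5-fold lies at or past the ends of that interval. Adam33, another gene of mesenchymal cells, ranged from 264 to 379.7 in TSP2KO and from 232 to 382 in WT. Adam15, a protease with a binding loop for integrins, ranged from 182 to 465 in TSP2KO and from 138 to 330.1 in WT; it shares 20.6% of its exon bases with an antisense gene.

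Adam8, a sheddase of myeloid cells, had the largest SD relative to its mean in WT of the tested members. It had 70.1, 68.3 and 28.5 normalised reads in TSP2KO 1, TSP2KO 2 and TSP2KO 3, against 115, 109 and 446 in WT 1, WT 2 and the library labelled WT 3. The groups did not overlap, but the library labelled WT 3 was far above the other 5 (log2 fold change -1.77, SE 0.62, unadjusted p = 0.0230, limma adjusted p = 0.402; -1.11 without it, limma adjusted p = 0.176). Macrophage markers were also lower in TSP2KO, where 19 of 19 tested were lower by sign and their median log2 fold change was -2.58. In the library labelled WT 3 their sum of 4142 was below those of WT 1 and WT 2, while its Adam8 value was above theirs. The part of macrophages in the Adam8 values was not tested.

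Adam11, Adam22 and Adam23 lack protease activity and are known as adhesion proteins of neurons. Adam11 had 24.9 to 52.6 normalised reads in TSP2KO and 47.5 to 107 in WT (log2 fold change -1.0, unadjusted p = 0.0456, limma adjusted p = 0.498; -1.30 with the library labelled WT 3 left out, limma adjusted p = 0.10). Adam22 had 186 to 192 in TSP2KO and 123 to 293 in WT, and Adam23 had 16.2 to 60.3 in TSP2KO and 32.2 to 70.6 in WT. Log2 fold changes were 0.18 for Adam22 and -0.29 for Adam23 with all libraries, and -0.0076 and 0.04 with the library labelled WT 3 left out. Adam1a, a sperm gene, had 5.98 to 17.7 in TSP2KO and 9.50 to 15.3 in WT, but 63.6% of its exon bases are shared with another gene on its strand, so its value is uncertain.

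Order by level per kilobase differed between libraries. Adam10 led in TSP2KO 1 and TSP2KO 2, at 703 and 795 normalised reads per kilobase, and Adam9 in TSP2KO 3, at 723. Adamts1 led in WT 1 and WT 2, at 2023 and 1156, while Adam10 led in the library labelled WT 3, at 683. Adamts1 stood at 230.0, 442 and 326 in TSP2KO 1, TSP2KO 2 and TSP2KO 3 and at 300.2 in the library labelled WT 3. The 8 catalytic ADAMs summed to 1764 to 2029 per kilobase in TSP2KO, against 3042 and 2587 in WT 1 and WT 2 and 1936 in the library labelled WT 3. ADAMTS-like genes summed to 266 to 445 in TSP2KO, against 392 and 345 in WT 1 and WT 2 and 175 in the library labelled WT 3.

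**Figure D4:**
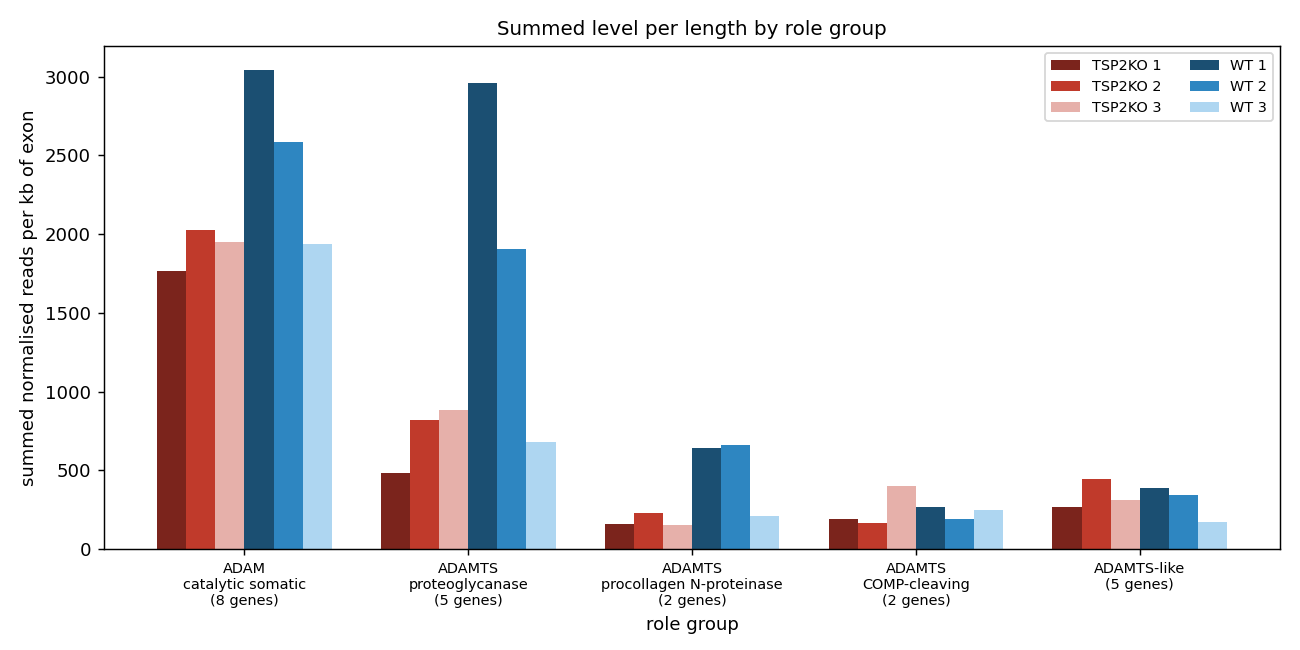
Summed normalised reads per kilobase of merged exon for 5 role groups, with 1 bar per library, TSP2KO in red and WT in blue. The proteoglycanase bars of WT 1 and WT 2 reach 2956 and 1909, against 484 to 886 in TSP2KO and 678 in the library labelled WT 3.

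The labelled groups did not overlap for 4 members, all lower in TSP2KO: Adam17, Adamts7, Adam8 and Adamtsl1. That is 13.8% of the 29, against 8.27% of all genes lower without overlap, and 0 members were higher, against 5.9%. Set against WT 1 and WT 2 alone, 13 members lay wholly lower, 44.8% against 22.3% of all genes. Among these 13 is Adamts17, which reached the limit of expression only through WT 1 and WT 2, at 25.2 and 22.0. In 19 of the 29 members, 65.5%, the library labelled WT 3 was nearer on the log2 scale to the TSP2KO mean than to that of WT 1 and WT 2. Over all genes tested that share was 68.1%, so the position of this library was near the background. Adamts7, Adamts12, Adam17, Adam8 and Adamtsl1 were among the 10 members where it was nearer to WT 1 and WT 2.

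Marker sums of other cells and of growth moved with part of these results. Fibroblast markers summed to 175338, 188842 and 276397 normalised reads in TSP2KO 1, TSP2KO 2 and TSP2KO 3, against 376567 and 392919 in WT 1 and WT 2 and 212309 in the library labelled WT 3. This sum was thus highest in the libraries where Adamts1, Adamts2 and Adamts5 were highest. Single markers were mixed: by sign, 7 of the 11 were lower in TSP2KO and 4 higher. With the library labelled WT 3 left out, 8 were lower and 3 higher. That library was nearer to TSP2KO for 6 of the 11. The sum over the 7 Schwann cell markers with a mean of at least 10 was also highest in WT 1 and WT 2. It was 12142, 9898 and 9367 in TSP2KO 1, TSP2KO 2 and TSP2KO 3, against 16870.3 and 16447 in WT 1 and WT 2 and 8125 in the library labelled WT 3. Of these 7 markers, 5 were lower by sign and 2 higher.

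Mitosis genes, 12 in all, ran the other way, with 11854, 8796 and 6781 normalised reads in TSP2KO 1, TSP2KO 2 and TSP2KO 3, against 2863 and 2818 in WT 1 and WT 2 and 14556 in the library labelled WT 3. Keratinocyte markers were high in TSP2KO 1, TSP2KO 2 and the library labelled WT 3, as above; Krt1, Krt15, Epcam or Lgals7 was at 0 in some libraries. Endothelial markers, 12 in all, summed to 774 to 3484 in TSP2KO and 904 to 7427 in WT, with Sox17 at 0 in 3 libraries, and 7 melanocyte markers to 368 to 1298 in TSP2KO and 1284 to 2646 in WT. The 12 contractile genes summed to 102648 to 223509 in TSP2KO and 22734 to 41619 in WT. The part of fibroblast share, growth state and these other cells in the members' values was not tested.

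Inhibitors of these proteases were set beside them. Of 6 tested genes of inhibition and clearance, 0 passed with all libraries, and without the library labelled WT 3 Timp1 passed as higher and Timp2 as lower, 1 of 6 each way, where 2.43% of all genes passed as higher and 2.75% as lower. Timp1, an inhibitor that acts on Adam10 among others, had 2414, 3191 and 3610.4 normalised reads in TSP2KO libraries, against 761, 842 and 3111 in WT 1, WT 2 and the library labelled WT 3 (log2 fold change 1.92 without the last, SE 0.21, limma adjusted p = 0.0127; 1.27 with it, limma adjusted p = 0.496). Timp2, named after its value was seen, had a log2 fold change of -0.97 without that library (limma adjusted p = 0.0345) and -0.47 with it. Lrp1, an endocytic receptor that clears ADAMTS proteases, did not pass either way (log2 fold changes -0.44 with and -0.68 without that library).

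Of 7 tested partners of Adam10 and Adam17, 6 were lower by sign, where 7579 of all 14707 genes tested were lower. With or without the library labelled WT 3, 0 of these partners passed. Tspan15, a tetraspanin that steers Adam10, had 136, 249.5 and 57.0 normalised reads in TSP2KO libraries, against 910.0, 384 and 183 in WT 1, WT 2 and the library labelled WT 3 (log2 fold change -1.68, SE 0.69, limma adjusted p = 0.497; -2.24 with the last left out, limma adjusted p = 0.0863). Frmd8, a partner of the iRhom proteins that carry Adam17, had a log2 fold change of -0.50 (limma adjusted p = 0.691), and -0.82 with the library labelled WT 3 left out (limma adjusted p = 0.0682). Of the 4 propeptide convertases, Pcsk5 was lower without overlap, at 17.2, 53.1 and 23.1 against 283, 98.1 and 55.8 in the same order of libraries (log2 fold change -2.02, limma adjusted p = 0.363; -2.54 with the library labelled WT 3 left out, limma adjusted p = 0.0608). Pcsk6 was higher without overlap (log2 fold change 0.53, and 0.63 with that library left out; limma adjusted p = 0.697 and 0.357). Over all genes tested, 8.27% were lower and 5.9% higher without overlap. Of the 4 enzymes that add sugars to thrombospondin repeats, Dpy19l1, which attaches mannose, had 193 ± 22.9 in TSP2KO and 301 ± 26.5 in WT (SD, n = 3 each). Its log2 fold change was -0.64, and -0.71 with the library labelled WT 3 left out (limma adjusted p = 0.317 and 0.0894). B3glct, which adds glucose in the same repeats, had -0.40, and -0.65 with that library left out (limma adjusted p = 0.789 and 0.320).

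Substrates did not share a direction. Vcan, the versican gene and main proteoglycan substrate, had 5689, 3632 and 5439 normalised reads in TSP2KO libraries, against 3050.0, 4804 and 4108 in WT 1, WT 2 and the library labelled WT 3; the groups overlapped (log2 fold change 0.30, 95% interval -0.30 to 0.90; 0.33 with the last left out). Dcn, the small proteoglycan decorin, had 8554 ± 5386 in TSP2KO and 48265 ± 8831 in WT (SD, n = 3 each; log2 fold change -2.80, limma adjusted p = 0.182; -2.96 with the library labelled WT 3 left out, limma adjusted p = 0.0550). Col3a1 and Col5a1, procollagen genes, had log2 fold changes of -0.93 and 0.76 (limma adjusted p = 0.654 and 0.643), and -1.35 and 0.45 with that library left out (limma adjusted p = 0.135 and 0.520). Of 9 microfibril partners 0 passed with all libraries; without the library labelled WT 3, Ltbp2, a latent TGF-beta binding protein, passed as higher (log2 fold change 2.75, limma adjusted p = 0.0246) and Mfap2 as lower (-0.99, limma adjusted p = 0.0417), 1 of 9 each way against the same 2.43% and 2.75% of all genes. With all libraries their log2 fold changes were 1.88 and -0.68. Of 24 tested substrates shed by Adam10 or Adam17, 15 were lower and 9 higher by sign, where 7579 of all genes were lower and 7128 higher, and 0 passed with all libraries. Without the library labelled WT 3, Btc, a ligand of the EGF receptor, App, the amyloid precursor (named after its value was seen), and Csf1r, a receptor of macrophages, passed as lower (log2 fold changes -2.76, -1.34 and -1.45, limma adjusted p = 0.0161, 0.0469 and 0.0407), 3 of 24 against 2.75% of all genes. With all libraries these were -2.22, -0.66 and -1.40. Csf1r is also among the macrophage markers, of which 14 of 19 tested passed as lower without the library labelled WT 3. Jag1, a Notch ligand, passed as higher (log2 fold change 1.29, limma adjusted p = 0.0286; 1.11 with all libraries), 1 of 24 against 2.43% of all genes, with 457, 398 and 572 in TSP2KO libraries, against 207, 178 and 279 in WT 1, WT 2 and the library labelled WT 3.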

How the data were processed

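RNA of 6 libraries, 3 TSP2KO and 3 WT, was measured by bulk sequencing of a stranded poly(A) library, per the labels' protocols. The authors deposited a signal per gene, normalised counts by the table's name, not whole numbers. The submitters' processing notes list the build mm10 and, with no role or order, Cell Ranger, Seurat 5.0.3, Partek, STAR and DESeq2. How reads were counted, and whether by strand, is not stated there. Each column was assigned by its genotype and replicate number; its library suffix differs from the label's.

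Genes with a mean of at least 10 were tested as log2(value + 1) with limma 3.58.1 in R 4.3.3, with a mean-variance trend, two-sided, and Benjamini-Hochberg adjustment over 14707 genes; a gene passed under 0.05. Fold changes are on that scale and understate those of low genes. The fit was also run on simulated data, drawn gene by gene with no library set apart. That run does not cover a library like the one labelled WT 3. Depth was estimated as each library's total divided by its most common low value, taken as 1 read. Exon lengths came from GENCODE M21, whose coordinates matched all 40 members after 1 base was taken off the stop. Of the tested members, 8 share exon bases with another gene. Among these, Adam19 shares 8.25% and 6.75% with antisense genes, and Adamts9 shares 9.18% and 2.82% with protein-coding genes on the other strand. Promoters came from RefSeq (GRCm38.p6), in which 22 members had an entry, and matched motifs were searched on both strands.

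The members, gene lists and naming rule were chosen with earlier results of these data known. Every tested member could be named, and of each pathway list up to 4 genes with the smallest unadjusted p, of which at least 2 are given; Timp2 and App lie outside that rule. Alternatives were pseudocounts of 0.1 and 10, no filter, a mean of at least 100, upper-quartile and quantile scaling, limma-voom, robust shrinkage, a replicate block and each library left out. A marker gene is not reported here.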

Additional observations from a re-analysis of the deposited data

How the results depend on the processing

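No member passed with all 6 libraries under any of the 9 other settings. Leaving out a library gave 0 to 4 members lower (4 without the library labelled WT 3: Adamts1, Adamts2, Adamts5 and Adamtsl1) and 0 higher. Over all genes, 9 were lower and 0 higher. The lower count was 0 with a pseudocount of 0.1, with no filter, with a mean of at least 100, with upper-quartile or quantile scaling and by limma-voom, and 14 with a pseudocount of 10; leaving out a library gave 0 to 404 lower and 0 to 357 higher, the highest counts without the library labelled WT 3. The cause was not tested.

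The members' median log2 fold change of -0.29 was -0.012 with no filter, -0.18 with a mean of at least 100 and -0.20 by limma-voom, and -0.32 to -0.16 when a library was left out. A change of filter alters which members enter the median, while each member's own log2 fold change stays the same. By limma-voom the median over all genes tested moved as well, from -0.014 to 0.060. Members near 0 changed sign. Adam1a had log2 fold changes of 0.022 with a pseudocount of 10, 0.042 with upper-quartile scaling, 0.14 with quantile scaling and 0.037 by limma-voom. Under the last 3 settings Adamts6 had 0.023, 0.0048 and 0.061, and Adamtsl3 had 0.024, 0.027 and 0.052. With a library left out, log2 fold changes ran from -0.075 to 0.26 for Adam12, -0.30 to 0.41 for Adam1a, -0.033 to 0.59 for Adam22, -0.66 to 0.26 for Adam23, -0.013 to 0.34 for Adam33, -1.57 to 0.12 for Adamts15, -0.38 to 0.18 for Adamts6, -0.29 to 0.43 for Adamts9, -0.25 to 0.39 for Adamtsl3 and -0.14 to 0.54 for Adamtsl5.

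Deviations from the group mean correlated across genes at r = -0.42, -0.25 and -0.39 for same-numbered libraries. For libraries of unlike number, r ran from -0.47 to 0.55. Deviations within a group of 3 are tied to each other, so these values cannot show whether the numbers pair the libraries. With the replicate block, 0 genes passed as lower, 0 as higher, and 0 members.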
